A study of Mus musculus with 12 samples.

Results

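The genes described here are 32 mouse genes of the NRF2 antioxidant response and of NADPH supply, read by 47 of the 55681 probes of a gene expression microarray. They were chosen by name: a probe belonged to the set where its RefSeq transcript was that of a listed gene, a rule that sets no threshold on a measured value. The list itself was drawn up with earlier results of these data known. After a filter on dim probes, 45 probes of 31 genes could be tested, among 20862 genes tested in all. The gene left out was Gsta4, a glutathione transferase, whose only probe (10 spots) was well above background on 1 of 4 arrays in each group. Each of the other 31 genes was well above background on every one of the 12 arrays, so that no tested gene entered through the group in which it was high.

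NRF2, the product of Nfe2l2, is a transcription factor that KEAP1 holds in the cytoplasm and passes on for degradation. When reactive compounds modify KEAP1, or when the autophagy receptor p62 (Sqstm1) competes for it, NRF2 enters the nucleus, pairs with a small MAF protein and binds antioxidant response elements near genes for glutathione, thioredoxin and detoxification enzymes. Most of these enzymes take their reducing power from NADPH, which the pentose phosphate pathway and malic enzyme supply, and macrophages use the same NADPH both to make superoxide and to clear it.

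The cells were adherent peritoneal macrophages of wild-type C57BL/6 mice aged 8 weeks, in 3 groups of 4 samples. The control group received vehicle, the IL4 group interleukin 4 (10 ng/ml), a cytokine that drives alternative activation, and the IL4 plus emodin group (the emodin arrays below) the same IL4 with emodin (50 µM), a plant anthraquinone. The sample descriptions give 6 h of treatment while the treatment protocol says overnight, and the series' design text names blood leukocytes where the sample labels name peritoneal macrophages. All cells had been kept overnight without serum beforehand, and no group received emodin without IL4. The design text calls the samples biological replicates, but the labels do not tie them to separate animals, so p-values then measure only how these samples vary, which may be technical.

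One array was hybridised per sample, in one colour. The 75th percentile of intensity lay between 633 and 810 on control arrays, 761 and 813 on IL4 arrays, and 447 and 516 on IL4 plus emodin arrays. The emodin group was lower than each of the others (exact permutation test, two-sided, p = 0.0286, the smallest that 4 against 4 arrays allow), whereas IL4 and control overlapped (p = 0.286). Control and IL4 arrays shared slide 1, on different rows, and all IL4 plus emodin arrays were on slide 2. The slide and the effect of emodin therefore cannot be told apart, nor can the slide row and the effect of IL4. Of 8 macrophage markers, 7 had a probe and all 7 were above background on all arrays, with a summed log2 level of 9.34 to 9.66 over the 3 groups. Single markers moved within that sum: for emodin minus IL4, 2 of the 7 were called higher and 3 lower, and the group mean of Fcgr1 was 1.63 in control, 1.06 with IL4 and -1.83 with emodin. B cell markers summed to between 0.011 and 1.24 on control arrays, 0.20 and 1.10 on IL4 arrays, and -1.66 and -0.93 on IL4 plus emodin arrays. Large peritoneal macrophage markers summed to 3.02 to 3.07, 2.95 to 3.21 and 1.63 to 2.01 in the same order, and neutrophil markers to 4.74 to 5.32, 4.27 to 4.93 and 5.20 to 5.88. A sum follows its most abundant genes: group means of Icam2 ran 2.88, 2.73 and 1.14 in that order, while those of Gata6, also of the large peritoneal list, ran -0.38, 0.54 and 0.34. In the neutrophil list Elane ran 4.31, 3.94 and 5.20, whereas S100a8 ran 3.41, 2.96 and 2.67 and Ltf -1.04, -1.23 and -2.04. In T cell markers the IL4 arrays were lowest (0.84 to 1.61, against 2.06 to 2.23 in control and 1.49 to 2.55 with emodin), with Cd3d and Cd3g above background on 0 of the 12 arrays. In eosinophil markers control was highest (0.24 to 0.39, against -0.89 to -0.28 with IL4 and -0.39 to -0.26 with emodin), and Prg2 and Epx were above background on 0 of 12. The part of these markers in the results below was not tested, and in RNA from a whole culture fewer cells of a type and less RNA per cell cannot be told apart. The labels name 6 male and 6 female samples, but 5 probes of 4 Y-linked genes were above background on 0 of the 12 arrays and Xist on all 12. The labelled sex was therefore left out of the main fit. It was used only for a planned interaction and for a covariate fit chosen after the data were seen.

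Levels below are log2 intensities relative to the 75th percentile of the same array, and a difference is one group's mean level minus another's, followed by its standard error from 4 arrays a group. A difference is called where its limma p-value, adjusted by Benjamini-Hochberg over all 20862 genes, is under 0.05. The replicate number was not part of this fit. Because the emodin arrays were dimmer and their spike-in controls brighter, the choice of scale decides much of what is said of emodin. Over all genes the median difference between IL4 plus emodin and IL4 was 0.17 on this scale, 0.022 after quantile scaling and -0.91 when arrays were scaled to their spike-in control RNAs. Of IL4 minus control the corresponding medians were -0.028, -0.029 and 0.077. This spike-in scale takes, per array, the median over spike-in probes of each probe's deviation from its mean over the arrays, and was added after the data were seen. That deviation lay between 0.21 and 0.38 on emodin arrays, -0.44 and 0.11 on IL4 arrays, and -0.39 and 0.065 on control arrays. The emodin group was higher than each of the others (exact permutation test, two-sided, p = 0.0286). The -0.91 therefore rests on brighter spike-in controls as well as on dimmer arrays. The plain median over all spike-in spots, which had been planned, differed between arrays of 1 group by up to 0.20 (control), 0.86 (IL4) and 0.96 (emodin) on the log2 scale, where the deviations differed by up to 0.46, 0.55 and 0.17; its median differences over all genes were -0.75 for emodin minus IL4 and 0.046 for IL4 minus control. Where a call is said to hold on all 4 scales, these are the 75th percentile, quantile, normexp (another background correction) and spike-in deviation scales. The spike-in scale lowers all emodin differences, with 80.2% of all genes called lower against IL4 and 76.2% against control. For a fall with emodin it is therefore no separate support. On either spike-in scale limma called 0 of the 31 genes higher with emodin in either comparison, with 0 also at an unadjusted p under 0.05. Few genes of the whole array were called higher there. The shares were 3.5% against IL4 and 4.06% against control by deviations, and 3.38% and 3.78% with the plain median. The 0 is thus no result about the set. Each rise with emodin reported below is a rise relative to the other genes of the array.

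A promoter window, from 250 bases before to 50 after a transcript start, was found for 27 of the 32 genes in the RefSeq promoter table (build GRCm38.p6); Abcc1, Gclc, Gsr, Gsta4 and Prdx6 had none. Each window was searched on both strands for the antioxidant response element core TGACNNNGC. The letters stood in a window of 13 of the 27 genes (48.1%), against 14% of the 27025 genes in the table. The core with 1 more letter, a final A, was found in 4 of the 27 (14.8%, against 3.45% of all genes), and the AP-1 motif TGAGTCA in 5 (18.5%, against 5.95%). In 10 genes a core match lay before the transcript start. Of those 10, 7 are printed here, 1 or more from each of the groups that regulate NRF2, make glutathione, conjugate it, clear peroxide or superoxide and supply NADPH. Those of Txnrd1, Mgst1 and Blvra are not printed, and none of these genes was called with IL4. Among the printed genes, Gclm, Gsta3, Prdx1, Sod1 and G6pdx were called lower with IL4, and Nfe2l2 and Mafg were not called. Each line gives the stretch around the match as read along the gene's strand, 5′ to 3′, with the 9 matching letters in capitals; a match to the opposite strand reads GCNNNGTCA.
Nfe2l2: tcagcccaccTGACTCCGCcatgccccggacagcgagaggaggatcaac
Mafg: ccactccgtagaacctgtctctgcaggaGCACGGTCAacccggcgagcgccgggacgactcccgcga
Gclm: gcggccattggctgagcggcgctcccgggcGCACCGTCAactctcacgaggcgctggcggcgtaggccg
Gsta3: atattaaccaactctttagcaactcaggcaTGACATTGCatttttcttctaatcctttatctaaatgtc
Prdx1: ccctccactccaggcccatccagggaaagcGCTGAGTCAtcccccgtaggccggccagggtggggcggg
Sod1: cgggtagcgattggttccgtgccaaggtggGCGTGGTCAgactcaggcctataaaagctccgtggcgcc
G6pdx: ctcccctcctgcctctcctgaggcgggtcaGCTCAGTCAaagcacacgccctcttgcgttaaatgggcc
These stretches lie at chr2:75704865-75704913 (minus strand), chr11:120633731-120633797 (minus), chr3:122245393-122245461 (plus), chr1:21240434-21240502 (plus), chr4:116685436-116685504 (plus), chr16:90220676-90220744 (plus) and chrX:74428899-74428967 (minus). Counted from the transcript start, the match began at position -240 in Nfe2l2, -222 in Mafg, -134 in Gclm, -121 in Gsta3, -133 in Prdx1, -56 in Sod1 and -57 in G6pdx. In Prdx1 the capitals also hold the AP-1 letters TGAGTCA; the other 6 matches hold none. A match is a run of letters, and binding was not measured. Of the 13 genes with the core, 7 were called lower with IL4 and 0 higher; of the 14 with a window but no core, 2 were called lower and 1 higher. Over all genes 8.56% were called lower and 8.98% higher. The share among all genes with the core was not computed, and Gsr, also called lower, had no window. Of the 7 lower calls, Srxn1 and Pgd held the core only after the transcript start, at positions 28 and 3. With each of the 12 arrays left out in turn, Prdx1 lost its call in 7 fits, and Gsta3 and Pgd in 6 each. Whether the core goes with the fall was not tested. For IL4 plus emodin minus IL4 the genes with the core gave 5 higher and 2 lower, and those without it 7 higher and 3 lower, where 39.4% of all genes were called higher and 26.5% lower.

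With IL4, 10 of the 31 genes fell and 1 rose. The 10 were Gsr, Gsta3, Blvrb, Gpx2, Prdx1, G6pdx, Sod1, Srxn1, Gclm and Pgd, with differences from -0.82 to -0.34, and the gene that rose was Osgin1. The lower calls were 32.3% of the genes, where 8.56% of all genes were called lower, and the higher call was 3.23%, where 8.98% of all genes were called higher. Because the genes were listed with earlier results of these data known, these shares are a description only. In 13 of the 31 genes (41.9%) the 4 IL4 arrays did not overlap the 4 control arrays, which held for 24.9% of all genes. The median difference was -0.23, beside -0.028 over all genes, and 0 of the 31 genes changed by a factor of 2. On the spike-in scale 4 of the falls and the rise of Osgin1 were called, where 3.31% of all genes were called lower and 8.04% higher. With the plain spike-in median limma called 0 of the 31 genes (lowest adjusted p = 0.101; 3 lower and 1 higher at an unadjusted p under 0.05), while it called 1268 of all genes, so every fall with IL4 reported below rests on a scale other than that one. When the replicate number was fitted as a block, 14 genes were called lower: Gstm1, Me1, Cat and Txn1 joined the 10. The share of all genes called with the block is not given, so this count is no result about the set. Same-numbered samples lay in the same slide column, so this block cannot separate a pairing of samples from array position.

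When emodin was added to IL4, 13 of the 31 genes rose and 5 fell relative to IL4 alone. Sqstm1, Sod1, Gclm and Blvrb rose the most, and Osgin1, Gstp1, Nfe2l2, Keap1 and Txnrd1 were the genes that fell. The 13 higher calls were 41.9% of the genes, beside 39.4% of all genes called higher, and the 5 lower calls 16.1%, beside 26.5% of all genes called lower. These shares are near those of the whole array or below them, so the genes are described one by one and their number is no result about the set. The arrays of the 2 groups did not overlap for 15 of the 31 genes (48.4%), against 60.4% of all genes, and the median difference was 0.23, beside 0.17 over all genes. On the quantile scale 8 genes were called higher and 11 lower, beside 29.4% and 30.9% of all genes.

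Set against vehicle control cells, the IL4 plus emodin arrays had 9 genes higher (29% of the 31, beside 37.3% of all genes) and 10 lower (32.3%, beside 25.6%). The arrays of these groups did not overlap for 18 genes (58.1%, beside 54.3% of all genes). The median difference was -0.080, beside 0.15 over all genes, and 0.074 without emodin replicate 1. This comparison shares its control arrays with the first and its emodin arrays with the second, so its values are given beside theirs and not as separate evidence. By the planned test of whether labelled sex altered the response, limma called 0 of the 31 genes and 0 of all 20862 (0%) for both the IL4 and the emodin difference. At an unadjusted p under 0.05 there were 272 and 507 genes, with 0 of the 31 among them in either. Since no array showed the Y-linked genes, the labels may not separate the sexes. With 2 arrays per labelled sex and group, this outcome does not show that sex has no part.

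**Figure D1:**
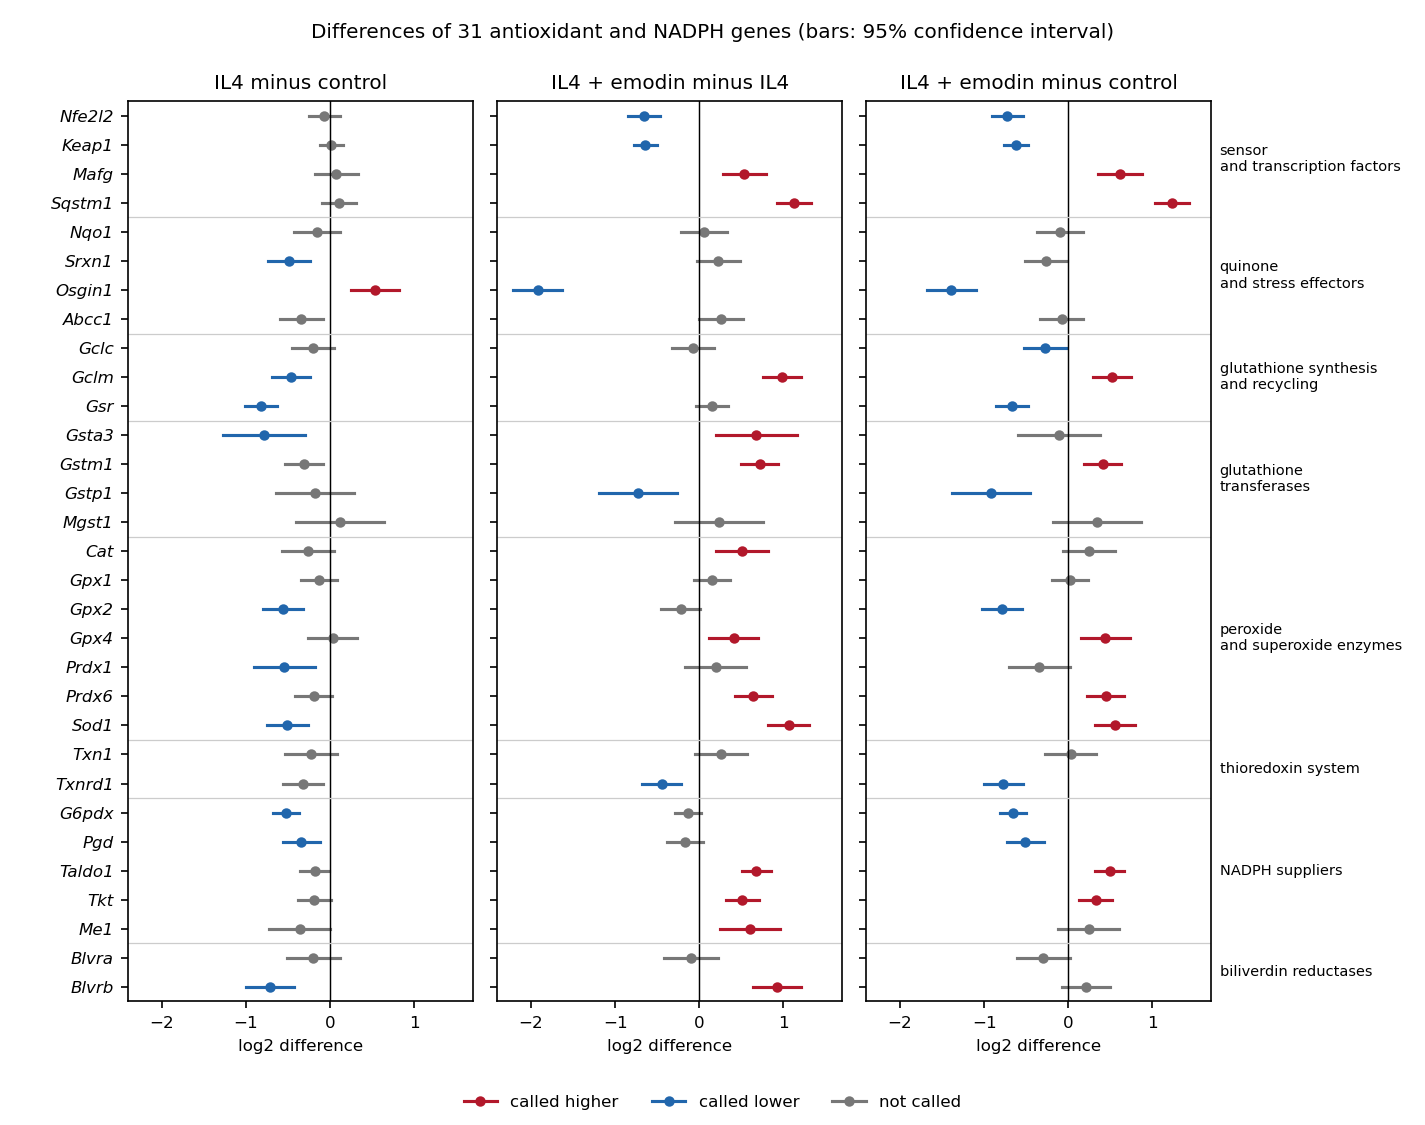
Log2 difference (x axis) of the 31 tested genes (y axis, grouped by role) in the 3 comparisons, with points for the limma estimate from 4 arrays a group and bars for its 95% confidence interval. With IL4 most estimates lie left of 0 (median -0.23), while with emodin Osgin1 stands farthest to the left and Sqstm1 farthest to the right. On the spike-in scale none of the genes is called higher with emodin, where 3.5% of all genes are against IL4 and 4.06% against control.

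Of the 4 regulators of NRF2 among the 31 genes, none was called with IL4 alone, and with emodin 2 fell and 2 rose. Over all genes 26.5% were called lower and 39.4% higher with emodin relative to IL4. Nfe2l2 was at 5.93, 5.93, 5.76 and 5.86 on control arrays, 5.92, 5.88, 5.74 and 5.67 on IL4 arrays and 5.27, 5.21, 5.09 and 5.01 with emodin. The emodin arrays lay below all 8 others, and the difference from IL4 was -0.66 ± 0.085 (adjusted p = 3.12e-05), 1.57-fold lower. Keap1, the NRF2 inhibitor, was at 4.14, 4.08, 4.08 and 4.20 on control arrays, 4.13, 4.17, 4.15 and 4.11 with IL4 and 3.56, 3.41, 3.55 and 3.49 with emodin. Its emodin arrays also lay below all others, and the difference from IL4 was -0.64 ± 0.064 (adjusted p = 3.79e-06). Both falls were called on all 4 scales, with differences of -0.86 and -0.69 after quantile scaling and -1.73 and -1.71 on the spike-in scale.

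Sqstm1, the gene of p62, which binds KEAP1 and directs it to autophagy, showed the largest rise of the 31 genes with emodin on this scale. Its levels were 5.40, 5.38, 5.33 and 5.11 on control arrays, 5.60, 5.38, 5.39 and 5.27 on IL4 arrays and 6.52, 6.63, 6.42 and 6.58 on emodin arrays. The emodin arrays lay above all 8 others, 2.19-fold above IL4, with a difference of 1.13 ± 0.093 (adjusted p = 8.12e-07). It remained called after quantile scaling (0.83), and on the spike-in scale the difference was 0.056 and not called. Mafg, a small MAF partner of NRF2, was at 5.79, 5.30, 5.43 and 5.40, 5.72, 5.60, 5.43 and 5.46 and 6.15, 6.15, 5.87 and 6.19 on control, IL4 and emodin arrays. The emodin arrays were all higher, by 0.54 ± 0.12 (adjusted p = 0.00175) over IL4, but the call was lost on the quantile scale (0.29, adjusted p = 0.0993) and the sign turned on the spike-in scale (-0.54). Its 3 probes differed by 0.54 to 0.76 in this comparison.

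The quinone and stress genes held both the strongest fall of the 31 genes with emodin and genes without any call. Osgin1, an oxidative stress response gene linked to growth inhibition, was at 1.38, 1.24, 1.23 and 0.90 on control arrays, 1.87, 1.87, 1.58 and 1.56 on IL4 arrays and -0.017, -0.42, -0.32 and -0.052 on emodin arrays. The 3 groups did not overlap. It rose with IL4 by 0.53 ± 0.13 (adjusted p = 0.0146), the only rise among the 31 genes in that comparison, and with emodin it was 3.79-fold lower than with IL4, a difference of -1.92 ± 0.13 (adjusted p = 1.68e-07). Both calls held on the quantile, normexp and spike-in scales.

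Nqo1, a quinone reductase often used as a marker of NRF2 activity, was at -0.54, -0.062, -0.15 and -0.40 on control arrays, -0.49, -0.30, -0.42 and -0.58 on IL4 arrays and -0.67, -0.25, -0.31 and -0.32 on emodin arrays. All 3 groups overlapped. The difference was -0.16 ± 0.13 (adjusted p = 0.438) between IL4 and control, with a 95% confidence interval of -0.43 to 0.11, and 0.061 ± 0.13 (adjusted p = 0.683) between emodin and IL4, with an interval of -0.21 to 0.33; on the spike-in scale the latter was -1.01 and called. Srxn1, which repairs over-oxidised peroxiredoxins, was at 7.01, 7.02, 7.10 and 6.78 in control and 6.54, 6.63, 6.61 and 6.16 with IL4. Those arrays did not overlap, and the difference was -0.49 ± 0.12 (adjusted p = 0.0116), 1.41-fold lower. With emodin Srxn1 was at 6.54, 6.84, 6.72 and 6.75, which reached from the IL4 to the control levels, and neither emodin difference was called (0.23 from IL4, -0.27 from control). The difference from control was called on the other scales, at -0.38 with normexp, -0.63 after quantile scaling and -1.24 with spike-ins. Abcc1, an exporter of glutathione conjugates, was called in none of the comparisons, at -0.34 for IL4 minus control (adjusted p = 0.0725), but this difference was called after quantile scaling (-0.38, adjusted p = 0.0493) and with normexp (-0.38, adjusted p = 0.0184).

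In glutathione synthesis and recycling, the modifier subunit and the reductase fell with IL4 and parted with emodin. Gclm, the modifier subunit of glutamate-cysteine ligase, was at 1.67, 1.89, 1.87 and 1.57 on control arrays, 1.30, 1.31, 1.39 and 1.15 with IL4 and 2.08, 2.43, 2.23 and 2.36 with emodin. No 2 of these groups overlapped, and emodin was highest. The difference was -0.46 ± 0.10 (adjusted p = 0.00795) for IL4 minus control and 0.99 ± 0.10 (adjusted p = 5.17e-06) for emodin minus IL4, 1.98-fold higher. The rise with emodin was 1.00 after quantile scaling and turned to -0.089, not called, on the spike-in scale, where the fall with IL4 also lost its call (adjusted p = 0.0807).

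Gsr, the reductase that returns oxidised glutathione to its reduced form with NADPH, had the largest fall of the 31 genes with IL4 on this scale and for the probes that stand for the genes; with normexp, Blvrb (-0.79) and Gsta3 (-0.77) fell more than Gsr (-0.67). Its levels were 4.98, 5.16, 5.08 and 4.92 in control, 4.23, 4.25, 4.22 and 4.17 with IL4 and 4.16, 4.43, 4.37 and 4.52 with emodin. Control lay above both other groups without overlap, and IL4 and emodin overlapped. IL4 was 1.76-fold below control, a difference of -0.82 ± 0.087 (adjusted p = 4.41e-05), and emodin 1.58-fold below control (-0.66 ± 0.087, adjusted p = 3.89e-05). Both falls were called on all 4 scales. Gclc, the catalytic subunit of the ligase, was at 3.56, 3.48, 3.60 and 3.13, 3.42, 3.21, 3.25 and 3.07 and 3.06, 3.16, 3.12 and 3.30 on control, IL4 and emodin arrays. The groups overlapped, and its only call, against control, was -0.28 ± 0.11 (adjusted p = 0.0499). Without any 1 of 8 arrays (control 1, 2 or 3, IL4 2 or 3, emodin 1, 2 or 3) that call was lost, with an adjusted p of up to 0.134.

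**Figure D2:**
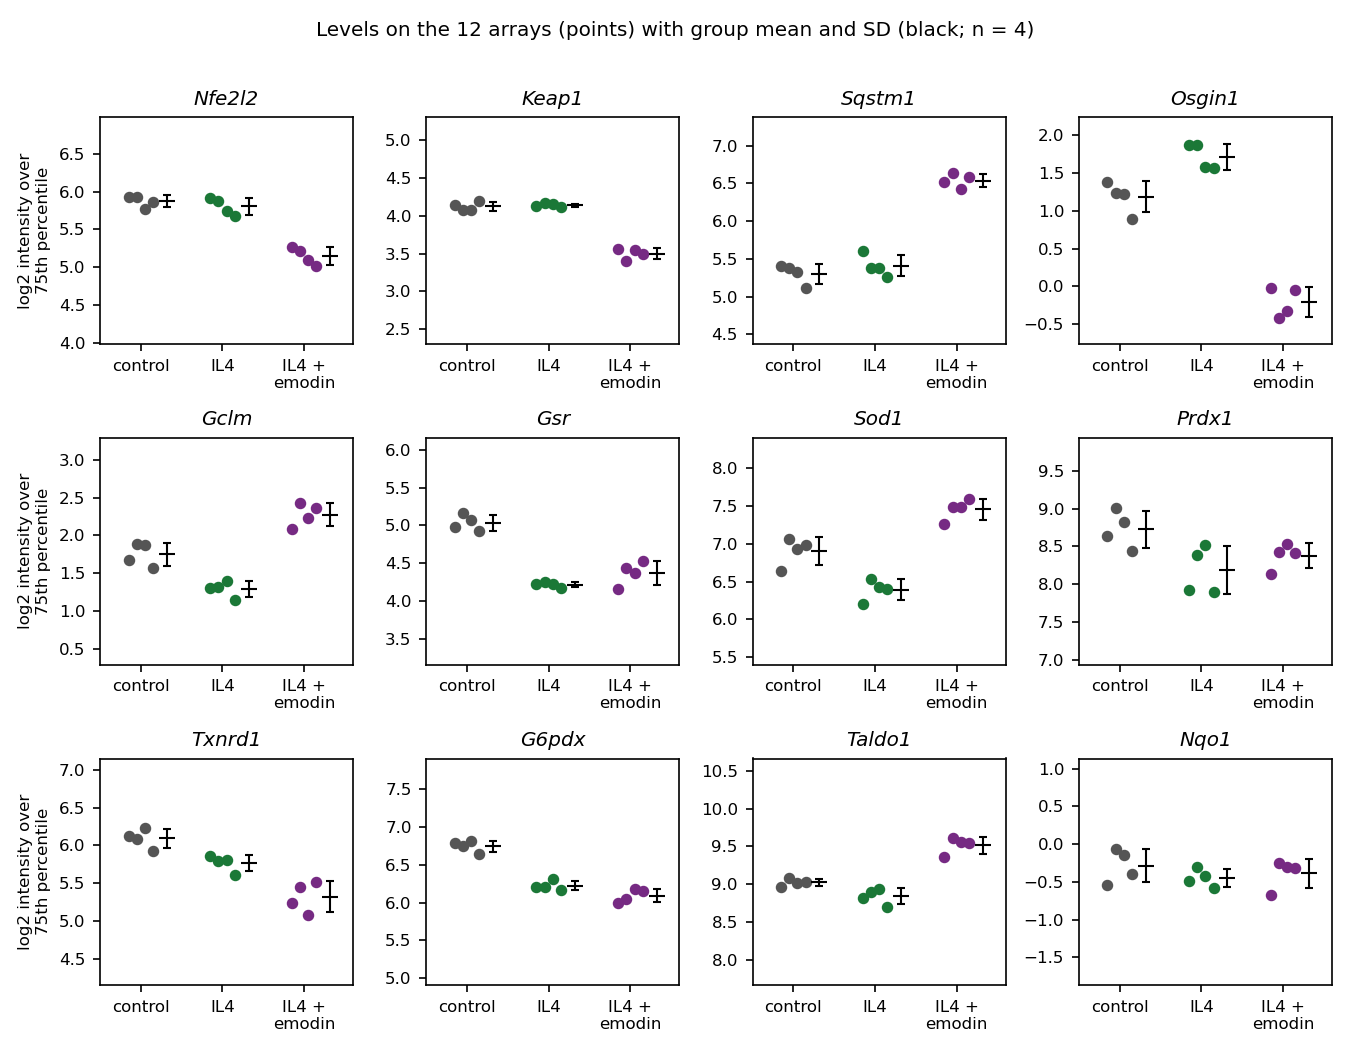
Level on each array (y axis, log2 intensity over the array's 75th percentile, with the same span in every panel) of 12 of the genes in the 3 groups (x axis), with black marks for the group mean and SD (n = 4). Nfe2l2 and Keap1 are lowest on emodin arrays, Gsr and G6pdx are below control in both IL4 groups, and Gclm and Sod1 are lowest with IL4 and highest with emodin.

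Of the glutathione transferases, which join glutathione to reactive compounds, Gsta3 fell with IL4, and with emodin Gsta3 and Gstm1 rose while Gstp1 fell. Gsta3 was at 0.76, 1.41, 1.49 and 1.31 on control arrays, 0.069, 0.55, 0.77 and 0.43 with IL4 and 0.57, 1.09, 1.40 and 1.47 with emodin. The groups overlapped, and replicate 1 was the lowest array in each. The differences were -0.79 ± 0.22 (adjusted p = 0.0291) for IL4 minus control and 0.68 ± 0.22 (adjusted p = 0.0174) for emodin minus IL4. The first lost its call without any 1 of 6 arrays (control 2, 3 or 4, or IL4 1, 2 or 4; adjusted p up to 0.0846) and on the spike-in scale (0.0666), whereas with the replicate block its adjusted p was 0.000394. The second lost it without IL4 replicate 1 (0.0543) or emodin replicate 4 (0.0527), and its sign turned on the spike-in scale (-0.39).

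Gstm1 was at 7.28, 7.04, 7.05 and 7.37 on control arrays, 6.86, 6.88, 6.79 and 6.98 with IL4 and 7.55, 7.69, 7.39 and 7.75 with emodin. The 3 groups did not overlap, with IL4 lowest and emodin highest. Emodin minus IL4 was 0.72 ± 0.10 (adjusted p = 7.03e-05), but 0.24 and not called after quantile scaling and -0.36 on the spike-in scale. IL4 minus control was -0.31 ± 0.10 (adjusted p = 0.0591), and called with the replicate block (adjusted p = 0.0143). Gstp1 was at 2.51, 3.07, 3.15 and 2.86, 2.21, 2.89, 2.98 and 2.77 and 1.45, 2.20, 2.16 and 2.13 in the same order, with the emodin arrays below all others. Its fall with emodin, -0.73 ± 0.21 (adjusted p = 0.00958), was called on all 4 scales. Gstp1 has a near-identical copy in the mouse, Gstp2, whose transcript these probes may also read. Mgst1, the microsomal transferase, ranged from 0.12 to 0.35 over the 3 comparisons and was called in none.

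Among the 7 enzymes that remove peroxide or superoxide, 3 fell with IL4 (8.56% of all genes were called lower) and 4 rose with emodin (39.4% of all genes were called higher). On the quantile scale 3 of the 7 were called higher and 3 lower with emodin relative to IL4, beside 29.4% and 30.9% of all genes. Sod1, the cytosolic superoxide dismutase, was at 6.65, 7.06, 6.94 and 6.99 on control arrays, 6.21, 6.54, 6.43 and 6.41 with IL4 and 7.27, 7.49, 7.49 and 7.60 with emodin. None of the groups overlapped, and emodin was highest. IL4 was 1.42-fold below control (-0.51 ± 0.11, adjusted p = 0.00714), and emodin 2.09-fold above IL4 (1.06 ± 0.11, adjusted p = 5.26e-06). On the quantile scale the rise was 0.63 and still called, while on the spike-in scale it was -0.0089 and the fall with IL4 was not called (adjusted p = 0.113).

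Prdx1, a thioredoxin-dependent peroxidase, was at 8.63, 9.01, 8.83 and 8.43 on control arrays, 7.93, 8.39, 8.52 and 7.90 with IL4 and 8.14, 8.43, 8.53 and 8.41 with emodin. Control and IL4 overlapped, and the call on their difference, -0.54 ± 0.17 (adjusted p = 0.0417), was lost without any 1 of 7 arrays (control 1, 2 or 3, IL4 1 or 4, emodin 2 or 4; adjusted p up to 0.119), on the normexp (0.103) and spike-in scales (0.123), and when the 2 groups were fitted alone (0.0644). With the replicate block its adjusted p was 0.00541. A second Prdx1 probe differed by -0.94 between IL4 and control. Emodin minus control was -0.35 and not called, but was called with normexp (-0.38), after quantile scaling (-0.93) and with spike-ins (-1.32), and for the second probe (-0.66). Emodin minus IL4 was 0.20, not called, and turned to -0.42, called, on the quantile scale. Gpx2, the gastrointestinal glutathione peroxidase, was at low levels of -2.04, -2.07, -2.21 and -2.01 in control, -2.69, -2.60, -2.81 and -2.47 with IL4 and -2.59, -2.90, -2.92 and -3.06 with emodin. Control lay above both other groups without overlap, with differences of -0.56 ± 0.11 (adjusted p = 0.00324) for IL4 and -0.79 ± 0.11 (adjusted p = 5.29e-05) for emodin; the first was not called on the spike-in scale (0.132). Between emodin and IL4 the difference was -0.22, not called, and 0.22, called, with normexp.

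Prdx6, a peroxiredoxin that uses glutathione, was at 5.45, 5.71, 5.63 and 5.51, 5.37, 5.42, 5.41 and 5.32 and 5.77, 6.26, 5.95 and 6.10 on control, IL4 and emodin arrays. IL4 was lowest and emodin highest, with no overlap between any 2 groups. Emodin exceeded IL4 by 0.64 ± 0.10 (adjusted p = 0.000157) and by 0.39 after quantile scaling, both called, against -0.43 on the spike-in scale. The IL4 difference of -0.20 was not called, although 1 of its other probes was, at -0.30.

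Cat, the catalase gene, rose with emodin by 0.51 ± 0.14 (adjusted p = 0.00697) over IL4 and by 0.51 on the quantile scale. With the replicate block its IL4 difference of -0.27 was called (adjusted p = 0.0452). Gpx4, which reduces lipid peroxides in membranes, rose with emodin by 0.41 ± 0.13 (adjusted p = 0.0172) over IL4. That call was lost without IL4 replicate 1 (adjusted p = 0.0516) and the sign turned to -0.17 on the quantile scale. Gpx1, the abundant cytosolic glutathione peroxidase, was at 8.68, 8.88, 8.90 and 8.97 in control, 8.63, 8.86, 8.77 and 8.65 with IL4 and 8.71, 8.83, 9.09 and 8.88 with emodin. Those groups overlapped and none of its differences was called, but on the quantile scale it was lower with emodin than with IL4 by -0.51 (adjusted p = 0.000172). On the spike-in scale Cat, Gpx4 and Gpx1 were lower with emodin than with IL4 by -0.56, -0.67 and -0.93.

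In the thioredoxin system, the reductase fell with emodin. Txnrd1, which uses NADPH to reduce thioredoxin, was at 6.12, 6.09, 6.22 and 5.92 on control arrays, 5.86, 5.79, 5.80 and 5.61 with IL4 and 5.24, 5.45, 5.08 and 5.52 with emodin. The groups did not overlap and followed one another downward. Emodin minus IL4 was -0.45 ± 0.11 (adjusted p = 0.00308), emodin minus control -0.77 ± 0.11 (adjusted p = 6.35e-05), 1.71-fold lower, and both were called on all 4 scales; IL4 minus control was -0.32 ± 0.11 (adjusted p = 0.0607), and called when these 2 groups were fitted alone (0.0355), after quantile scaling (0.0404) and with normexp (0.0314). Txn1, thioredoxin itself, was at 7.94, 8.36, 8.33 and 8.00, 7.84, 8.08, 8.16 and 7.64 and 8.00, 8.33, 8.32 and 8.10 in control, IL4 and emodin, with overlap throughout. IL4 minus control was -0.23, called with the replicate block (adjusted p = 0.0387) and not without it. Emodin minus IL4 was 0.26 and not called, but -0.31 and called on the quantile scale.

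Among the NADPH suppliers, G6pdx and Pgd encode the dehydrogenases of the oxidative branch of the pentose phosphate pathway, which make NADPH, and both fell with IL4 and stayed below control with emodin. G6pdx was at 6.79, 6.75, 6.81 and 6.65 on control arrays, 6.20, 6.20, 6.32 and 6.17 with IL4 and 6.00, 6.04, 6.18 and 6.15 with emodin. Control lay above all 8 other arrays, with differences of -0.52 ± 0.071 (adjusted p = 0.000288) for IL4 and -0.66 ± 0.071 (adjusted p = 7.75e-06) for emodin, both called on all 4 scales. Pgd was at 6.66, 6.64, 6.94 and 6.74, 6.43, 6.40, 6.44 and 6.36 and 6.01, 6.42, 6.17 and 6.34 in the same order, control again above the rest. Its fall with IL4, -0.34 ± 0.10 (adjusted p = 0.0352), lost its call without any 1 of 6 arrays (control 3 or 4, or any IL4 array; adjusted p up to 0.0986) and on the spike-in scale (0.277; 0.034 with the replicate block), whereas the fall with emodin against control, -0.51 ± 0.10 (adjusted p = 0.000834), was called on all 4. Emodin minus IL4 was not called for either gene on the scale used here, and was called lower for both on the quantile scale (-0.43 and -0.49).

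Taldo1 and Tkt encode transaldolase and transketolase, the enzymes of the non-oxidative branch. Taldo1 was at 8.96, 9.08, 9.01 and 9.03 on control arrays, 8.81, 8.90, 8.94 and 8.70 with IL4 and 9.35, 9.62, 9.55 and 9.54 with emodin, and the emodin arrays were above all others. Tkt was at 7.39, 7.42, 7.57 and 7.54, 7.37, 7.27, 7.46 and 7.07 and 7.73, 7.83, 7.82 and 7.85, again highest with emodin. Emodin minus IL4 was 0.68 ± 0.080 (adjusted p = 1.43e-05) for Taldo1 and 0.51 ± 0.089 (adjusted p = 0.00032) for Tkt. Those rises rest on the scale: after quantile scaling the differences were -0.0054 and -0.012, on the spike-in scale -0.40 and -0.56. Against control Taldo1 was called higher here (0.49) and lower on the quantile scale (-0.18). IL4 minus control was called for neither (-0.18 and -0.19).

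Me1, the cytosolic malic enzyme, was at -0.64, -0.48, -0.14 and -0.39 on control arrays, -1.11, -0.85, -0.50 and -0.65 with IL4 and -0.55, -0.16, -0.0032 and 0.039 with emodin. Each pair of groups overlapped. It rose with emodin by 0.61 ± 0.16 (adjusted p = 0.00634) over IL4 and by 0.58 after quantile scaling, against -0.47 on the spike-in scale, and its 3 probes did not share 1 call in this comparison. With the replicate block its IL4 difference of -0.36 was called (adjusted p = 0.00574).

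Of the biliverdin reductases, which make bilirubin with NADPH, Blvrb changed, and Blvra did not pass the test on the 75th percentile scale. Blvrb was at 6.55, 7.19, 6.87 and 6.89 on control arrays, 6.30, 6.13, 6.31 and 5.90 with IL4 and 6.99, 7.09, 7.07 and 7.20 with emodin. IL4 lay below all 8 other arrays, while control and emodin overlapped. IL4 minus control was -0.72 ± 0.13 (adjusted p = 0.00251), 1.64-fold lower and called on all 4 scales, and emodin minus IL4 was 0.93 ± 0.13 (adjusted p = 6.64e-05), called except on the spike-in scale (-0.15). Blvra was at 4.85, 5.39, 5.33 and 5.03, 4.90, 5.10, 5.07 and 4.73 and 4.57, 4.91, 5.10 and 4.85 in the same order, with overlap between all groups and differences of -0.20, -0.098 and -0.30 in the 3 comparisons. The last was called lower with normexp (-0.36), after quantile scaling (-0.47) and with spike-ins (-1.27).

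Read across the 3 comparisons, the genes took 10 patterns of calls. The largest group, of 7 genes, was called higher with emodin against both IL4 and control and not with IL4: Gpx4, Gstm1, Mafg, Prdx6, Sqstm1, Taldo1 and Tkt. Gstp1, Keap1, Nfe2l2 and Txnrd1 were lower with emodin against both and not called with IL4. G6pdx, Gpx2, Gsr and Pgd were lower than control in both IL4 groups and not called between them. Gclm and Sod1 were lower with IL4 and higher with emodin than in either other group, Blvrb and Gsta3 were lower with IL4 than in control and higher with emodin than with IL4, with no call between emodin and control, and Osgin1 was the reverse of Gclm and Sod1. Prdx1 and Srxn1 were called with IL4 alone, Cat and Me1 in emodin minus IL4 alone, and Gclc in emodin minus control alone. Abcc1, Blvra, Gpx1, Mgst1, Nqo1 and Txn1 were called in none of the comparisons. These patterns are those of the 75th percentile scale. Over all genes, 39.4% were called higher with emodin against IL4 and 37.3% against control. The share of all genes with each pattern is not given, so the sizes of these groups are no result about the set. For emodin minus control, Prdx1, Srxn1 and Blvra were called lower on each of the quantile, normexp and spike-in scales, and Gpx1 and Txn1 on the quantile and spike-in scales.

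How far the calls hold on other scales is shown by the plot of differences under 4 scalings. With IL4, 9 of the 10 falls and the rise of Osgin1 were called in the same direction with the 75th percentile, quantile and normexp scales, and 4 of the falls (Blvrb, G6pdx, Gsr and Srxn1) and Osgin1 with the spike-in scale as well. In emodin minus IL4, 8 of the 13 rises (Blvrb, Cat, Gclm, Gsta3, Me1, Prdx6, Sod1 and Sqstm1) were called on the first 3 scales and 0 on all 4, whereas all 5 falls were called on all 4. In emodin minus control, 4 of 9 rises (Gclm, Mafg, Prdx6 and Sqstm1) held on the first 3 scales and 0 on all 4, and 10 of 10 falls held on all 4. With the plain spike-in median the 5 falls of emodin minus IL4 and the 10 of emodin minus control were called as well, and none of the changes with IL4. Of all genes, 80.2% (against IL4) and 76.2% (against control) were called lower with emodin by deviations. With the plain median these shares were 59.4% and 55.1%. Both spike-in scales thus favour falls with emodin, and calls that hold there are no separate support.

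**Figure D3:**
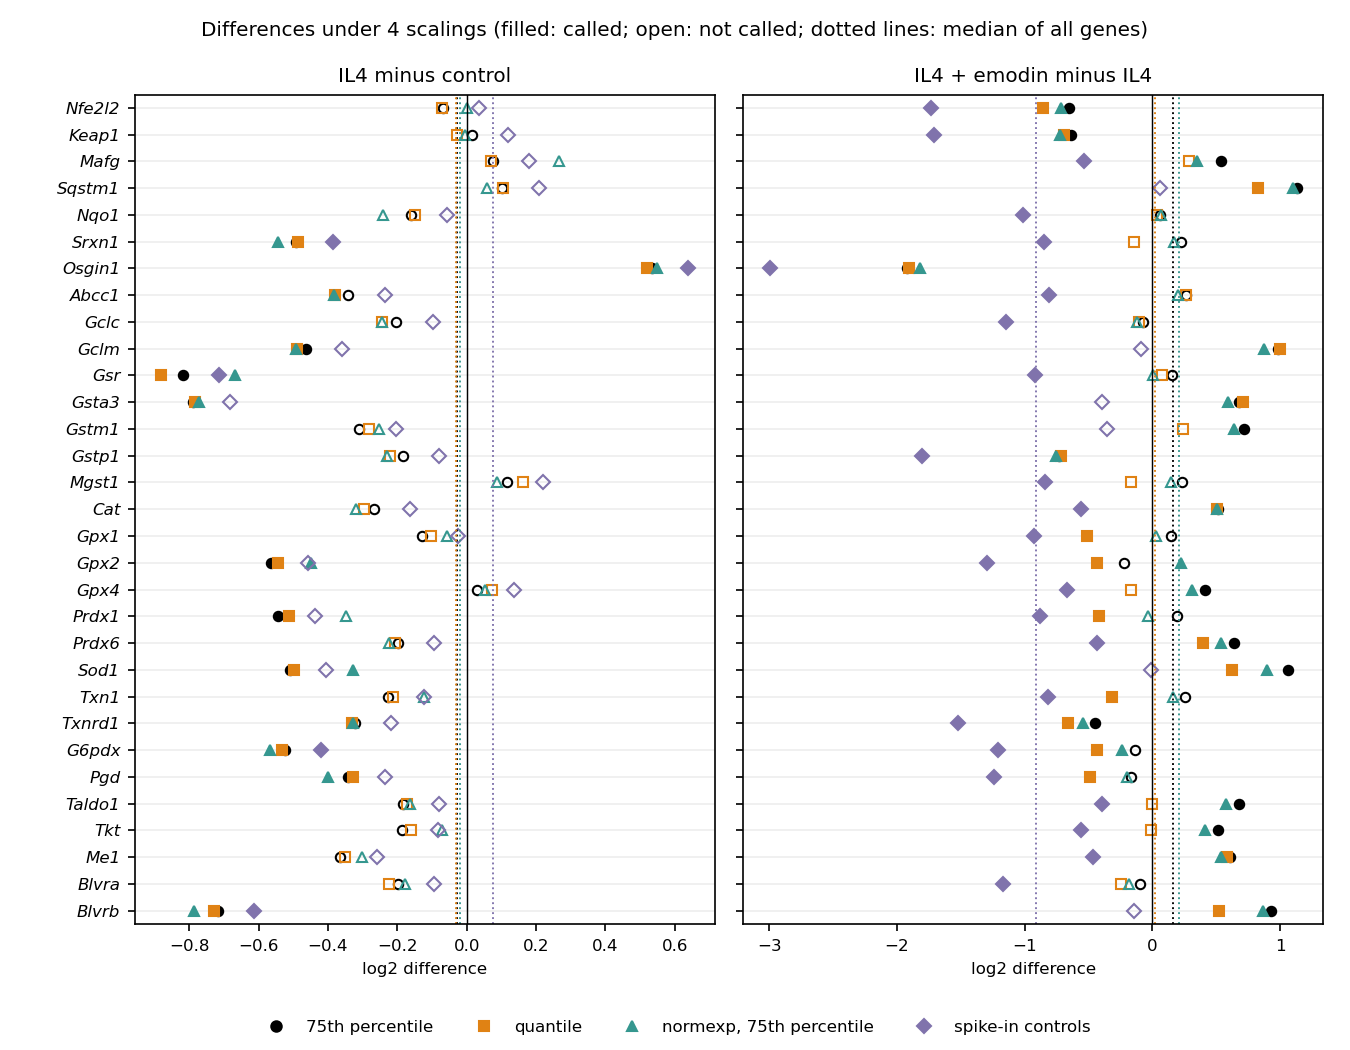
Log2 difference (x axis) of the 31 genes (y axis) for IL4 minus control and IL4 plus emodin minus IL4 under 4 scalings, with filled symbols where limma called the gene and dotted lines at the median of all genes (with emodin 0.17, 0.022, 0.20 and -0.91 for 75th percentile, quantile, normexp and spike-in). The spike-in symbols lie left of the others in the emodin panel, where Nfe2l2, Keap1, Gstp1, Osgin1 and Txnrd1 are left of 0 under all 4.

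The rest of the pathway was read through 7 further lists that hold none of the 32 genes. Their counts stand beside 8.98% of all genes called higher and 8.56% lower with IL4, and 39.4% and 26.5% with emodin relative to IL4. Of 10 regulators of NRF2 or its relatives, 1 rose and 1 fell with IL4, and 4 rose and 4 fell with emodin relative to IL4. The small MAF genes Maff and Mafk, whose products pair with NRF2, rose with emodin by 0.97 ± 0.12 (adjusted p = 1.88e-05) and 1.16 ± 0.11 (adjusted p = 1.79e-06), and so did Nfe2l1, an NRF2 relative that drives proteasome genes, by 1.07 ± 0.097 (adjusted p = 1.78e-06). Maff also rose with IL4, by 1.06 ± 0.12 (adjusted p = 6.13e-05). Nfe2, another relative, fell 9.9-fold with emodin, a difference of -3.31 ± 0.19 (adjusted p = 4.94e-08). Bach1, a repressor at the same elements, fell as well (-1.17 ± 0.12, adjusted p = 4.02e-06), as did Btrc, a ubiquitin ligase subunit that acts on NRF2 (-1.18 ± 0.10, adjusted p = 1.38e-06). On the spike-in scale the rises of Maff, Mafk and Nfe2l1 were -0.11, 0.084 and -0.0024, none of them called.

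Of 16 other NRF2 targets, 1 rose and 4 fell with IL4, and 8 rose and 3 fell with emodin. On the spike-in scale 0 rose and 15 fell with emodin, where 80.2% of all genes were called lower. Hmox1, heme oxygenase 1, differed by -0.36 ± 0.11 (adjusted p = 0.0505) between IL4 and control, called with the replicate block (adjusted p = 0.0171), and by 0.33 ± 0.11 (adjusted p = 0.0235) between emodin and IL4, a call that was lost on the quantile scale (0.067) and turned on the spike-in scale (-0.75). That emodin call was also lost without any 1 of 4 arrays (IL4 1 or 2, emodin 2 or 4; adjusted p up to 0.0693). Slc7a11, the cystine importer that feeds glutathione synthesis, fell 4.42-fold with emodin (-2.15 ± 0.19, adjusted p = 1.61e-06) and did not pass the test with IL4 (-0.17). Trim16, an E3 ligase, and Akr1b8, an aldo-keto reductase, fell with IL4, with differences of -1.60 ± 0.18 (adjusted p = 6.62e-05) and -1.08 ± 0.11 (adjusted p = 3.55e-05). Akr1b8 rose with emodin by 1.19 ± 0.11 (adjusted p = 2.32e-06), or 0.11 and not called on the spike-in scale. Slc6a9, a glycine transporter, rose with IL4 by 0.86 ± 0.15 (adjusted p = 0.00192) and fell with emodin (-0.84 ± 0.15, adjusted p = 0.000447). Cbr3, a carbonyl reductase, fell with emodin (-1.19 ± 0.15, adjusted p = 2.72e-05). The ferritin genes Fth1 and Ftl1 rose by 0.73 and 0.70 with emodin, but on the quantile scale the values were 0.011 and -0.026 and on the spike-in scale -0.34 and -0.37.

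Of 20 other glutathione genes tested, 4 rose and 1 fell with IL4, and 6 rose and 4 fell with emodin. Glrx, glutaredoxin, moved the most: it rose 4.24-fold with IL4 (2.08 ± 0.15, adjusted p = 1.88e-06) and fell 6.59-fold when emodin was added (-2.72 ± 0.15, adjusted p = 3.10e-08), and both calls held on all 4 scales. Chac1, which degrades glutathione, rose with IL4 by 0.97 ± 0.14 (adjusted p = 0.000467). Gss, glutathione synthetase, rose with emodin by 0.77 ± 0.11 (adjusted p = 9.41e-05) and was -0.31 on the spike-in scale. Of 16 other peroxidase and thioredoxin genes, 1 rose and 2 fell with IL4, and 6 rose and 3 fell with emodin. Sod3, the secreted superoxide dismutase, was the 1 that rose with IL4, 3.93-fold (1.97 ± 0.55, adjusted p = 0.0274), and it fell with emodin (-1.49 ± 0.55, adjusted p = 0.0311). The first call was lost without any 1 of 6 arrays (control 1, 2 or 3, IL4 2, 3 or 4; adjusted p up to 0.0809), with differences of 1.64 to 2.34 over all arrays left out in turn, and its adjusted p was 5.00e-06 with the replicate block. The second was lost without any 1 of 5 (IL4 2 or 4, emodin 1, 2 or 3; adjusted p up to 0.0939), with differences of -1.89 to -1.14. Msrb1, a methionine sulfoxide reductase, fell with IL4 (-1.03 ± 0.12, adjusted p = 7.51e-05) and rose with emodin (1.07 ± 0.12, adjusted p = 8.35e-06). Sod2, the mitochondrial dismutase, rose with emodin by 0.76 ± 0.099 (adjusted p = 3.35e-05), and Txnip, the thioredoxin inhibitor, fell (-1.30 ± 0.12, adjusted p = 2.81e-06). On the spike-in scale Msrb1 and Sod2 were at -0.0025 and -0.32.

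Of 11 other NADPH genes tested, 2 rose and 2 fell with IL4, and 2 rose and 4 fell with emodin. Idh1, the cytosolic isocitrate dehydrogenase that makes NADPH, fell 4.25-fold with emodin (-2.09 ± 0.11, adjusted p = 2.03e-08). Tigar, a phosphatase that favours the pentose phosphate pathway, fell 3.37-fold (-1.75 ± 0.14, adjusted p = 4.61e-07). H6pd, the dehydrogenase of the endoplasmic reticulum, fell both with IL4 (-0.47 ± 0.076, adjusted p = 0.00103) and with emodin (-0.77 ± 0.076, adjusted p = 3.67e-06). The phagocyte NADPH oxidase, which spends NADPH on superoxide, had 3 of 6 subunit genes lower with IL4, and 4 higher and 2 lower with emodin. Cybb, its catalytic subunit, fell with IL4 (-0.88 ± 0.085, adjusted p = 1.95e-05) and rose with emodin (1.31 ± 0.085, adjusted p = 1.10e-07), a rise that was 0.24 and not called on the spike-in scale. Ncf1 followed the same course, with -1.21 ± 0.13 (adjusted p = 4.40e-05) for IL4 and 0.79 ± 0.13 (adjusted p = 0.000195) for emodin, or -0.28 on the spike-in scale. Of 6 genes for selenoprotein synthesis, on which the glutathione peroxidases and Txnrd1 depend, 1 fell with IL4 and, with emodin, 1 rose and 2 fell. These included Sephs2 with -0.74 ± 0.12 (adjusted p = 0.000967) for IL4, and Sepsecs with 1.33 ± 0.13 (adjusted p = 2.38e-06) for emodin, while Pstk fell 2-fold with emodin (adjusted p = 3.92e-05).

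**Figure D4:**
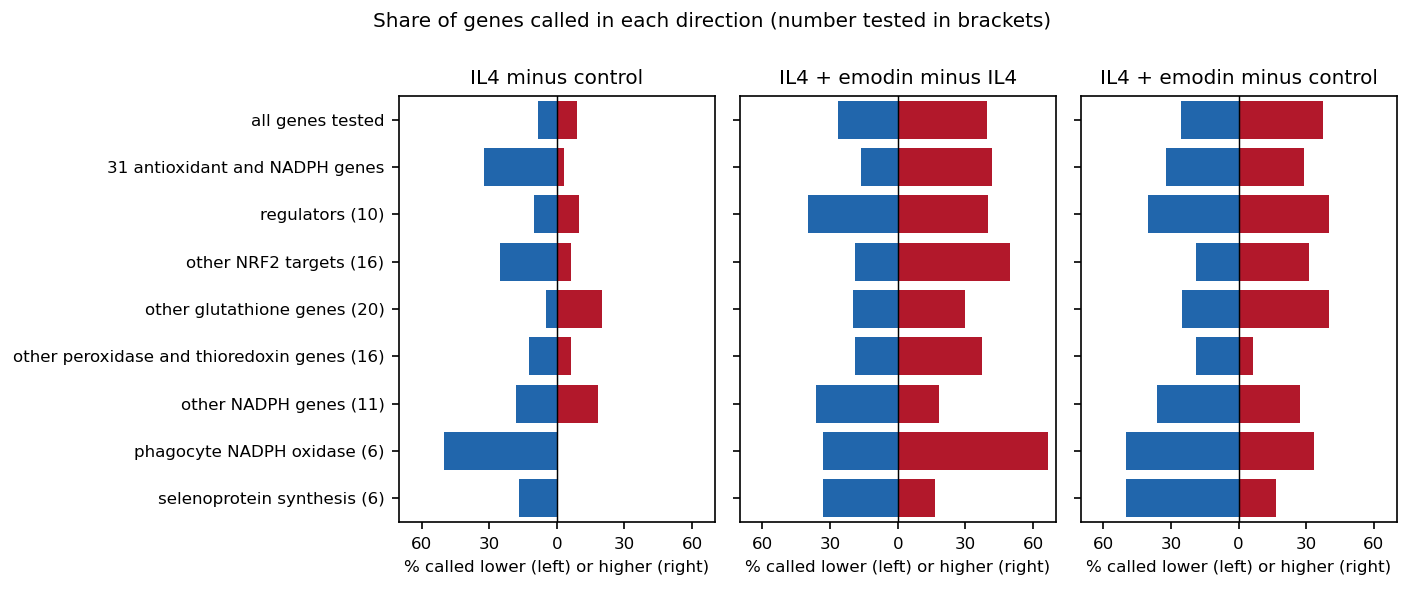
Share of genes called higher (right, red) or lower (left, blue) by limma at an adjusted p under 0.05, in percent (x axis), for all 20862 genes, the 31 genes and 7 further pathway lists with the number tested in brackets (y axis), in the 3 comparisons. Every bar is on the 75th percentile scale. With IL4 the lower bar of the 31 genes (32.3%) is longer than that of all genes (8.56%), while with emodin, on the 75th percentile scale, the bars of the 31 genes (41.9% and 16.1%) are close to or shorter than those of all genes (39.4% and 26.5%).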

How the data were processed

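RNA of 12 samples (4 control, 4 IL4, 4 IL4 plus emodin) was hybridised to one-colour Agilent mouse arrays. Per the file headers, the authors deposited processed spot intensity values, with Agilent Feature Extraction 10.7.3.1 named in the submitters' processing notes. A deposited table of log2 values matched, at r = 1 on every array, a quantile normalisation of these intensities centred on each probe's median, with array medians of -0.0078 to 0.014, and served as an alternative. From the intensities, log2 values minus each array's 75th percentile were computed without control spots. A probe was kept where 1 group or more had it well above background on each of its 4 arrays, and the probe with the highest mean stood for a gene. Differences were fitted over all 12 arrays with limma 3.58.1 in R 4.3.3 (two-sided, 9 residual degrees of freedom, Benjamini-Hochberg over 20862 genes), which was tested on simulated data. Arrays limit precision by their number.

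The members and lists were chosen with earlier results of these data known. All 32 members are named; of other pathway genes, Hmox1 and Slc7a11 always, and otherwise genes among the 4 largest called differences per list, comparison and direction. Some items under these rules are not reported here. Same-numbered control and IL4 samples deviated together (correlations of 0.52, 0.31, 0.33 and 0.44 for numbers 1 to 4). These numbers were therefore taken to pair samples, from the data and not from the labels, in the alternative fit with a replicate block only. The main fit had no replicate term, so its standard errors and p-values count this shared deviation as spread. In all 3 groups, samples 1 to 4 were hybridised in slide columns 1 to 4. A pairing of samples and a shared position on the slide therefore cannot be told apart. For emodin minus IL4 and emodin minus control the lowest correlation was 0.093 and 0.056. Alternatives were quantile scaling, spike-in scaling, normexp background correction (offset 50), the deposited table, no filter on dim probes, the mean of a gene's probes, fits of the compared groups alone, the replicate block, each array left out, and, chosen after the data were seen, sex as a covariate. Spike-in scaling was planned as the plain median over all spike-in spots of an array. After its values were seen, a second form was added, the median over 7 of 10 spike-in probes (those above background) of each probe's deviation from its mean over arrays; the report calls this form the spike-in scale and gives the planned form beside it. Promoter windows came from RefSeq (GRCm38.p6) and were searched in Python 3.11.15. A planned description of protein features was not made.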

Additional observations from a re-analysis of the deposited data

Results flagged for a closer look

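Among 96 sets of 4 arrays examined (the level of each of 31 genes in 3 groups, and the 75th percentile of each group), 4 held an array far from the other 3, and chance flags about 1 in 20 such sets. Nqo1 was at -0.67 on emodin replicate 1, while the other 3 emodin arrays lay between -0.32 and -0.25. Gstp1 was at 1.45 on the same array, against 2.13 to 2.20 on the other 3. Mafg was at 5.87 on emodin replicate 3, against 6.15 to 6.19. The 75th percentile of intensity was 813 on IL4 replicate 1, against 761 to 766 on the other IL4 arrays. Without emodin replicate 1, Gstp1 differed between emodin and IL4 by -0.55 (limma adjusted p = 0.0262) and Nqo1 by 0.16 (limma adjusted p = 0.267). Without emodin replicate 3, Mafg differed by 0.61 (limma adjusted p = 0.00107).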

How the results depend on the processing

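With IL4 the number of genes called lower was 12 after quantile scaling and in the deposited table, 11 with normexp and with the mean of all probes, and 7 to 12 (8 to 13 called) when 1 array was left out, with medians between -0.30 and -0.19. Single calls did not all hold: Prdx1 lost its call in 7 of the 12 fits with 1 array left out, and Gsta3 and Pgd in 6 each, and these 3 were not called on either spike-in scale. The spike-in scale by deviations gave 5 calls with IL4, 4 of them lower, where 3.31% of all genes were called lower and 8.04% higher. The plain spike-in median, the planned form, gave 0 calls, 0 higher and 0 lower. For emodin minus IL4, quantile scaling and the deposited table each gave 8 higher and 11 lower, with medians of -0.10 (all genes with quantile scaling, 29.4% and 30.9%). The deviations gave 0 higher and 25 lower (median -0.84), where 80.2% of all genes were called lower, and the plain median 0 higher and 18 lower (median -0.68), where 59.4% were. For emodin minus control the counts were 4 higher and 16 lower with quantile scaling, 3 and 16 in the deposited table (median -0.21), 0 and 30, or 30 called, with the deviations (median -1.05; 76.2% of all genes lower), and 0 and 19 with the plain median (median -0.92; 55.1%). Leaving out 1 array gave 16 to 20 calls for emodin minus IL4 (11 to 14 higher, 5 to 6 lower, median 0.16 to 0.29) and 18 to 21 for emodin minus control (9 to 10 higher, 9 to 12 lower), with a median between -0.12 and 0.074, the latter without emodin replicate 1. Of the 13 genes with the core motif in a promoter window, 4 held the longer letters.

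Some differences of emodin minus IL4 turned in sign against the reported one. They were, after quantile scaling, Prdx1 -0.42, Taldo1 -0.0054, Tkt -0.012, Gpx1 -0.51, Gpx4 -0.17, Txn1 -0.31 and Ftl1 -0.026; in the deposited table, Prdx1 -0.43, Taldo1 -0.010, Tkt -0.016, Gpx1 -0.51, Gpx4 -0.17, Txn1 -0.32 and Ftl1 -0.026; with normexp, Gpx2 0.22; by spike-in deviations, Nqo1 -1.01, Gclm -0.089, Srxn1 -0.85, Gsr -0.92, Gsta3 -0.39, Gstm1 -0.36, Prdx1 -0.88, Prdx6 -0.43, Taldo1 -0.40, Tkt -0.56, Me1 -0.47, Abcc1 -0.81, Cat -0.56, Gpx1 -0.93, Gpx4 -0.67, Txn1 -0.82, Blvrb -0.15, Mgst1 -0.84, Mafg -0.54, Sod1 -0.0089, Hmox1 -0.75, Maff -0.11, Nfe2l1 -0.0024, Fth1 -0.34, Ftl1 -0.37, Gss -0.31, Msrb1 -0.0025, Sod2 -0.32 and Ncf1 -0.28; and with the plain spike-in median, Nqo1 -0.85, Srxn1 -0.69, Gsr -0.76, Gsta3 -0.23, Gstm1 -0.19, Prdx1 -0.72, Prdx6 -0.27, Taldo1 -0.23, Tkt -0.40, Me1 -0.31, Abcc1 -0.65, Cat -0.40, Gpx1 -0.76, Gpx4 -0.50, Txn1 -0.66, Mgst1 -0.68, Mafg -0.37, Hmox1 -0.58, Fth1 -0.18, Ftl1 -0.21, Gss -0.15, Sod2 -0.16 and Ncf1 -0.12. For emodin minus control they were, after quantile scaling, Gstm1 -0.041, Taldo1 -0.18, Tkt -0.17, Gpx1 -0.61, Gpx4 -0.095 and Txn1 -0.52; in the deposited table, Gstm1 -0.046, Taldo1 -0.18, Tkt -0.18, Gpx1 -0.62, Gpx4 -0.10 and Txn1 -0.53; by spike-in deviations, Gclm -0.45, Gstm1 -0.56, Prdx6 -0.52, Taldo1 -0.48, Tkt -0.64, Me1 -0.73, Cat -0.72, Gpx1 -0.95, Gpx4 -0.53, Txn1 -0.94, Blvrb -0.76, Mgst1 -0.62, Mafg -0.36 and Sod1 -0.41; and with the plain spike-in median, Gclm -0.32, Gstm1 -0.43, Prdx6 -0.39, Taldo1 -0.34, Tkt -0.51, Gpx1 -0.82, Gpx4 -0.40, Txn1 -0.81, Blvrb -0.63, Mafg -0.23 and Sod1 -0.28. A change between spike-in and 75th percentile scaling shifts all genes of an array equally; beyond that the cause was not tested.

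With the replicate number, and with it the slide column, as a block, 14 genes were lower and 1 higher with IL4. For this block, shares of all genes called are not given in any comparison, so its counts are a description only. In the emodin comparisons, where the numbers did not meet the rule for pairing, the replicate block gave 15 higher and 5 lower against IL4 and 12 higher and 12 lower against control, and every sample correlated best with its own number except number 2 of emodin minus control. Adding the labelled sex as a covariate, chosen after the data were seen, lost the calls of Prdx1 with IL4 and of Gclc between emodin and control and gained Me1 and Hmox1 with IL4. The slide as a block was not run, because all emodin arrays were on a slide of their own. Control and IL4 fitted alone, within their slide, gave 11 calls, and there the slide row still followed the group. Gpx2 lay below the 75th percentile on all 12 arrays, and the cause of its turned sign with normexp was not tested. Simulated 1.5-fold changes were recovered in 52.2% of genes for IL4 minus control, 56.7% for emodin minus IL4 and 44.8% for emodin minus control. Each simulation changed 200 of 20862 genes, far fewer than were called in the data. The adjusted p depends on that number, so these shares are not the recovery in the reported fits.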

Other observations

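Ranked by group mean on the 75th percentile scale, 11 of the 31 genes were highest with emodin, then control, then IL4 (Blvrb, Cat, Gclm, Gpx1, Gstm1, Me1, Prdx6, Sod1, Taldo1, Tkt and Txn1). Another 8 were highest in control, then IL4, then emodin (Blvra, G6pdx, Gclc, Gpx2, Gstp1, Nfe2l2, Pgd and Txnrd1), and 6 ran from control through emodin to IL4 (Abcc1, Gsr, Gsta3, Nqo1, Prdx1 and Srxn1). Gpx4, Mafg, Mgst1 and Sqstm1 ran from emodin through IL4 to control, and Keap1 and Osgin1 from IL4 through control to emodin. Neighbours in these orders differ beyond their error only where the report gives a call, and the place of emodin moves with the scale.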
